A study of Mus musculus with 9 samples.

Results

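The array carried 16194 probes for intergenic noncoding RNA, each named by a genome position and a strand and not by a gene symbol. In some group, 10709 of these cleared the scanner's background flag on each of its 3 arrays and were kept, and 5485 did not. The members were therefore chosen by their own signal, so which of them were detected is a description and carries no test. The other probes of the array, most of them named for genes, numbered 39487, of which 29236 passed the same filter, so 39945 probes were tested in all.

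The RNA came from peritoneal macrophages of male mice, which a cell sorter had gated for CD45 and F4/80, with 3 arrays in each of 3 groups. The Ctrl macrophages grew without other cells for 24 h. Those of group T were taken from the lower chamber of a Transwell after 24 h of co-culture with CT-26, a mouse colon carcinoma line. Group M holds migratory macrophages recovered from the upper chamber of such a co-culture, and the sources used here do not say how long that culture lasted. Groups follow the sample titles: a cell type label that says migratory is attached to T, whereas the titles and the design text give that name to M. No label says that the arrays of a group are separate cultures or animals, so a p-value here covers the spread from sample to sample alone, and that spread may be technical.

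Long intergenic noncoding RNAs are transcripts that lie between protein-coding genes and hold no long open reading frame. Many are spliced and polyadenylated, are made at low levels, and vary more between cell states than messenger RNAs do. In macrophages several such RNAs are known to be transcribed beside inflammatory genes when the cells are stimulated, and others are known targets of p53 or structural parts of nuclear bodies. The probes here were designed against candidate regions, and most of these regions have no established function.

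A region strand below is the set of probes that share a region and a strand in their name. The members formed 4610 region strands in 3543 regions, with a median of 3 probes and at most 10. Region length had a median of 7304 bp, a minimum of 62 bp and a maximum of 7128487 bp, with the next longest region at 538251 bp. A position of the probe itself was given for 16076 members, and for 16068 of them it lay inside the named region. Forward probes numbered 8184, of which 5432 were tested, and reverse probes 8010, of which 5277 were tested. The sources used here do not state which strand of the amplified cDNA was labelled, so forward and reverse below mean the strand in the probe's name and not the strand that was transcribed.

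The name of the class was checked against the gene-named probes of the same array. In 3830 region strands no gene-named probe lay inside the region on either strand. In 492 a gene-named probe lay inside on the same strand, and the nearest of these was for a protein-coding gene in 196 and for a long noncoding RNA gene in 238. In 338 such a probe lay inside on the opposite strand. So a minority of the region strands overlap a gene-named probe and are not intergenic by that measure. The measure sees only where gene-named probes lie and not how far the genes reach. Region strands without such a probe may therefore still overlap a gene, as those near Malat1 described below do. Within 100 kb, 4083 region strands had a gene-named probe, and over all 4610 region strands the nearest lay a median of 14937 bp away.

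The sequences of 10 probes that the results turn on follow, each 60 bases long, 5′ to 3′, with its position on mouse build mm9 as the files give it. First come 2 pairs of probes whose positions overlap on opposite strands. The capitals mark the run of bases that is the reverse complement of the partner's run, 37 bases in the pair beside Ptgs2 (prostaglandin-endoperoxide synthase) and 43 in the pair beside Socs3 (an inhibitor of cytokine signalling). They are shown since each pair reads the same stretch of genome on both strands.
A_30_P01020197, chr1:152007809-152007868, forward, beside Ptgs2: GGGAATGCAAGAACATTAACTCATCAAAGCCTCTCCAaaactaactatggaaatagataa
A_30_P01020139, chr1:152007786-152007845, reverse, beside Ptgs2: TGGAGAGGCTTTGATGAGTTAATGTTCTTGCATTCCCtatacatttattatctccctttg
A_30_P01022718, chr11:117792960-117793019, forward, beside Socs3: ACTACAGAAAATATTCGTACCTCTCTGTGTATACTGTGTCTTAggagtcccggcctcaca
A_30_P01017974, chr11:117792943-117793002, reverse, beside Socs3: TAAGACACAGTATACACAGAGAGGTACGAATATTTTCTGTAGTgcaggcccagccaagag

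The next 6 probes come from regions that led a contrast or lie beside Cdkn1a, the gene of the cell cycle inhibitor p21. They are in lower case, since no part of them is singled out.
A_30_P01030373, chr17:47017151-47017210, forward, nearest gene probe Tbcc: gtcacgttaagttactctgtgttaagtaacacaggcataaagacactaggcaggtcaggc
A_30_P01022191, chr17:47017421-47017480, forward, nearest gene probe Tbcc: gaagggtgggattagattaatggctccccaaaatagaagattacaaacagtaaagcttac
A_30_P01027581, chr3:95457467-95457526, reverse, nearest gene probe Mcl1: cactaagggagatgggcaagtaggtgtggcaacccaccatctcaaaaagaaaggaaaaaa
A_30_P01021480, chr17:29192752-29192811, reverse, nearest gene probe Cdkn1a: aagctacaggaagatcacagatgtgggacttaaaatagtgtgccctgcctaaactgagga
A_30_P01030305, chr3:21973693-21973752, reverse, nearest gene probe Tbl1xr1: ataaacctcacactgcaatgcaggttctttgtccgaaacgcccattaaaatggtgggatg
A_30_P01018336, chr3:21973753-21973812, reverse, nearest gene probe Tbl1xr1: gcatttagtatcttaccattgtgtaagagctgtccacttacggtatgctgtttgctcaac

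Levels are given as the log2 of the processed signal minus the array's 75th percentile over all non-control probes, so that 0 is that percentile on every array. They may be compared between arrays for 1 probe and not between probes, which differ in affinity. Differences are between group means in the same log2 unit, and SE is limma's moderated standard error, with the spread pooled over all 9 arrays.

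The 9 arrays were not alike, and the differences bear on the members. The share of member probes well above background was 74.6%, 75.7% and 64.1% on the Ctrl arrays, 67.3%, 65.8% and 59.1% on the T arrays, and 50.7%, 58.9% and 54.5% on the M arrays. Ctrl1 and Ctrl2 stood above Ctrl3, and every M array stood below every Ctrl and T array. The other probes ranged from 64.5% on M1 to 79.9% on Ctrl2, and among them M2 at 69.7% stood above T3 at 69.1%. Negative control spots had a net signal of 59.2 on M1, above the 24.2 to 45.8 of the other 8 arrays. Replicate spots varied most on M1 and M3, with a median coefficient of variation of 19.7% and 26.6%, against 5.63% to 13.1% elsewhere. The 3 T arrays were on slide 2 with a scan of their own, while all Ctrl and M arrays were on slide 1, so T and its slide cannot be told apart in any contrast that includes T. M against Ctrl lies within 1 slide. The number of arrays limits the precision of every value.

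**Figure D1:**
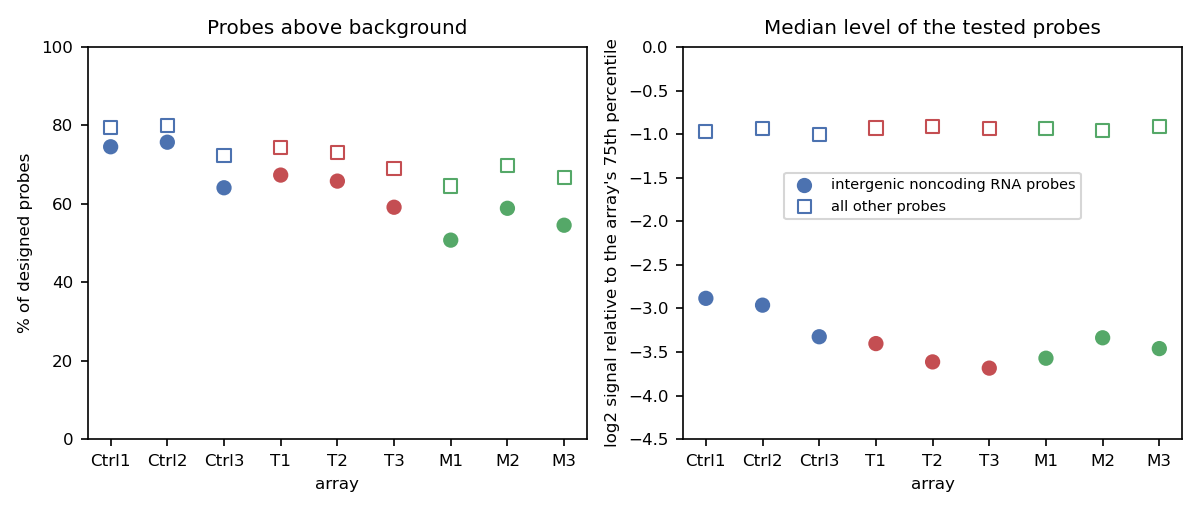
Percent of probes well above background (in percent) and median log2 level relative to the array's 75th percentile, for each of the 9 arrays; filled points are the intergenic noncoding RNA probes and open squares the other probes. The members' share above background runs from 50.7% on M1 to 75.7% on Ctrl2, with Ctrl3 at 64.1%, and their median level is highest on Ctrl1 at -2.88 and lowest on T3 at -3.69.

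All 9 macrophage markers checked, among them Adgre1, Cd68 and Csf1r, were above background on all 9 arrays. Markers of other cells were few: 2 of 4 for T and NK cells, 0 of 3 for B cells, 2 of 4 for granulocytes and mast cells, 2 of 6 for epithelial and mesothelial cells and 1 of 3 for fibroblasts were above background on every array. Ms4a1, which encodes the B cell antigen CD20, was above background on none. The summed linear level of the epithelial and mesothelial markers, relative to the 75th percentile, was 0.617 to 0.729 on the T arrays against 0.231 to 0.336 on Ctrl and 0.206 to 0.267 on M. That of the T and NK cell markers was 0.204 to 0.783 on Ctrl, 0.118 to 0.182 on T and 0.196 to 0.235 on M. The part of these cells in the contrasts with T was not tested.

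Most members that were detected were detected everywhere. Of the 16194 probes, 7729 were above background on all arrays of all 3 groups, 1199 in Ctrl and T, 133 in Ctrl and M, and 33 in T and M. Detection in a single group was commonest in Ctrl, with 1181 probes, then T with 417 and M with 17. A probe detected through 1 group had to be high there, so these numbers describe the choice of members. Just inside the threshold, 280 probes were above background on the 3 arrays of 1 group and on no other array, and their highest group mean had a median of -5.40 (quartiles -5.68 and -5.04). Just outside it, 1428 probes reached 2 arrays of a group at most, with a median of -5.94 (quartiles -6.22 and -5.61). Over all tested members the median was -2.85 (quartiles -4.24 and -0.83). Where a region was named on both strands, which held for 1067 regions, both strands had a tested probe in 960, the forward strand alone in 43, the reverse strand alone in 42 and neither in 22.

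Detection moved with base composition and with region length. Among members with up to 40% G and C, 48.7% were tested, against 67.8% between 40% and 50% and 92.2% above 50%. The other probes showed the same order, at 64.0%, 78.2% and 94.2%. The tested members had a median of 45.0% G and C and the members not tested 41.7%. Of the probes in regions up to 1 kb long 55.9% were tested, against 56.9% from 1 to 5 kb, 71.0% from 5 to 20 kb and 67.5% above 20 kb. The hexamer AATAAA, the common polyadenylation signal, searched on the probe's own strand with its reverse complement TTTATT as the other strand and any overlap allowed, was found in 3.92% of the 16194 members and 12.6% of the 39487 other probes. TTTATT was found in 3.03% and 4.03%. The share with AATAAA was thus lower among members than among the other probes, while the shares with TTTATT lay closer together. A match is a run of letters in the probe and says nothing of its use.

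The first comparison asks what differed in macrophages co-cultured with CT-26 cells in the lower chamber (T) from macrophages cultured alone (Ctrl). More members fell than rose. At an adjusted p under 0.05, 1149 members were higher in T (10.7% of those tested) and 4653 lower (43.4%), and the median difference over the 10709 was -0.58. Among all 39945 probes tested, 46.4% were called, 14.9% higher and 31.6% lower, and among the other probes 16.4% and 27.3%, with a median of -0.17. The T and Ctrl arrays did not overlap for 6332 members (59.1%), against 54.6% of all probes. Among the 7729 members above background on all 9 arrays, 744 were higher and 3245 lower with a median of -0.52, so the lower calls were not confined to members lost from view in T.

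How far the balance leaned to lower values depended on the scaling. Under quantile normalization 1635 members were higher and 2941 lower, so that 35.7% of the calls were higher against 19.8% with the 75th percentile. With the median of each array as the reference 1819 were higher and 2514 lower, which is 42.0%. These scalings moved the median over all probes from -0.27 to -0.07 and 0.15, and the median over members from -0.58 to -0.27 and -0.16. The members' median stayed below that of the other probes in each, by 0.41 with either fixed reference point and by 0.27 under quantile normalization. Lower calls also moved with the single arrays. Ctrl3 was the lowest Ctrl array for 54.4% of all tested members and for 74.3% of the 4653 called lower. Without Ctrl2, T2 or T3 the number of lower calls was 3095, 3020 or 2786, and with Ctrl1 and Ctrl2 left out together it was 902 with 633 higher, where the lone Ctrl3 is assumed to vary like the other groups.

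Part of the members' lower median went with where they lie on the signal scale. With all probes split into 5 equal bins by mean signal, the members' median difference from the dimmest bin to the brightest was -0.80, -0.73, -0.56, -0.39 and -0.22. For the other probes it was -0.87, -0.61, -0.07, 0.09 and -0.13. In the dimmest bin the members' median was thus no lower than that of the other probes, and in the next-to-brightest bin and the one before it the margins below the other probes were largest. By base composition the members' medians were -0.25 up to 40% G and C, -0.62 from 40% to 50% and -0.71 above. By region length they were -0.82 up to 1 kb, -0.55 from 1 to 5 kb, -0.48 from 5 to 20 kb and -0.62 above 20 kb.

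**Figure D2:**
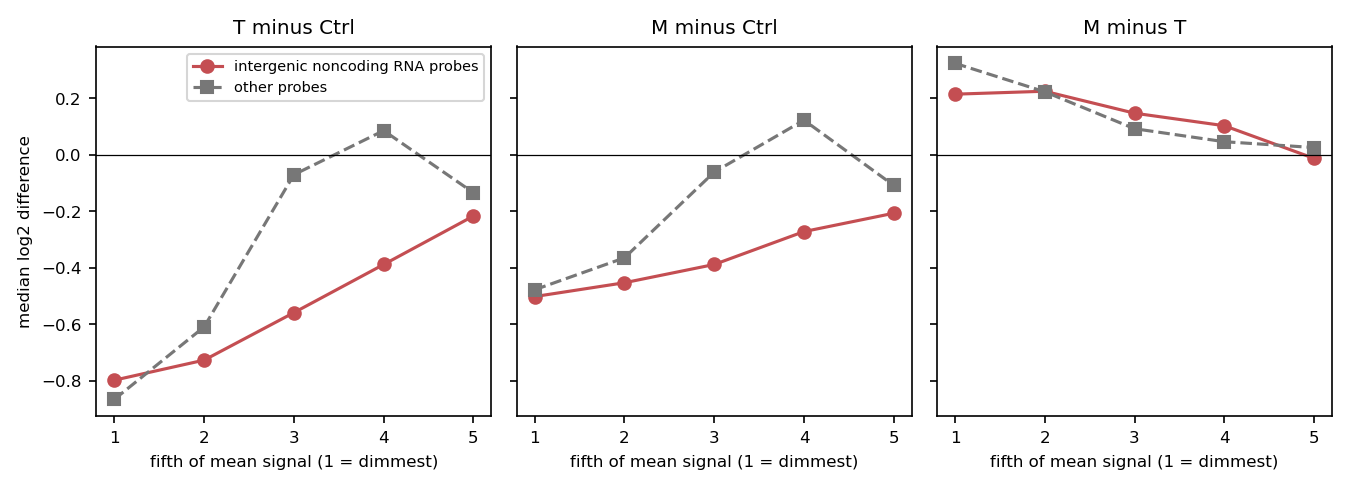
Median log2 difference of the intergenic noncoding RNA probes and of the other probes in 5 bins of mean signal, dimmest to brightest, for each of the 3 contrasts. For T minus Ctrl the members run from -0.80 to -0.22 while the other probes run from -0.87 to 0.09 in the fourth bin; for M minus Ctrl the members run from -0.50 to -0.21.

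Some region strands had all of their tested probes called the same way. Taken singly, 10.7% of members were called higher in T and 43.4% lower, beside 14.9% and 31.6% of all probes. Part of the agreement counted here, above all among lower calls, follows from those shares. Of 2762 region strands with 2 or more tested probes, 107 had every tested probe called higher in T and 558 had every one called lower. In 193 the calls went both ways, and in 454 no probe was called. With 3 or more tested probes, 76 of 1779 region strands were higher throughout and 207 lower throughout. Where both strands of a region were tested, 8 of 960 regions had every probe higher on both strands, 109 had every probe lower on both, and 2 had opposite strands called throughout in opposite directions. In 276 regions only 1 of the strands was called throughout. The region strands described next were picked for the size of their median difference among those called throughout with arrays that do not overlap, so their order is a description.

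One of the region strands that led the rises in T was the reverse strand of chr7:89433125-89464275, 31151 bp long. A probe for Sh3gl3, which encodes endophilin-A3, a membrane-curving protein, lies inside it on the opposite strand. All 4 probes were higher in T. A_30_P01031516, the only one above background in all groups, read -2.99, -3.25 and -3.66 in Ctrl, -1.52, -1.73 and -1.63 in T, and -3.73, -3.60 and -3.52 in M. T stood apart above both other groups, by 3.19-fold over Ctrl (log2 difference 1.67, SE 0.20, limma adjusted p = 0.000291). In Ctrl the other 3 probes did not clear the background flag at all, which gives only bounds of at least 13.6-fold, 10.8-fold and 15.6-fold. These 3 passed the filter without Ctrl, so that they are higher elsewhere follows from the choice. The Sh3gl3 probe itself differed by 4.71 (SE 0.31, limma adjusted p = 7.87e-06).

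On the forward strand of chr17:47016870-47017498, 629 bp long and 11183 bp from a probe for the tubulin folding cofactor Tbcc, all 3 probes were higher in T. A_30_P01022191 read -4.94, -4.40 and -4.33 in Ctrl, -0.997, -1.06 and -0.97 in T, and -4.27, -4.19 and -4.33 in M. The T arrays lay close together, far above all Ctrl and M arrays. The difference from Ctrl was 3.55 (SE 0.19, limma adjusted p = 3.01e-06), or 11.7-fold. A_30_P01030373 and A_30_P01032995 were not above background in Ctrl or M, and were at least 7.83-fold and 11.4-fold higher in T. The Tbcc probe also rose in T, by 1.20 (adjusted p = 0.00174). Unlike the region strand it was higher in M as well, by 1.01 (adjusted p = 0.01), and M minus T was -0.19 (adjusted p = 0.55).

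The reverse strand of chr3:95457337-95458070 lies 7473 bp from a probe for Mcl1, an anti-apoptotic member of the BCL2 family. Both of its probes were higher in T than in Ctrl, and both were higher in M as well, with medians of 3.38 and 1.73. A_30_P01027581 read -2.36, -2.35 and -1.96 in Ctrl, 0.70, 0.55 and 0.56 in T, and -0.57, -0.72 and -0.81 in M. The 3 groups formed 3 separate steps, Ctrl lowest and T highest. T was 7.09-fold above Ctrl (2.83, SE 0.18, limma adjusted p = 6.39e-06) and M 2.88-fold above it (1.52, adjusted p = 0.000385), and M was below T (-1.30, adjusted p = 0.000711). The Mcl1 probe was 1.27 higher in T (adjusted p = 0.00121).

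Among region strands with signal above background in every group, 2 more stood out by similar rises. On the forward strand of chr7:80763588-80764230 the 3 probes had a median of 3.25. A_30_P01018487 there read -2.65, -2.44 and -2.35 in Ctrl, 0.63, 0.82 and 0.87 in T, and -1.68, -1.78 and -1.95 in M, a 9.53-fold rise in T (3.25, SE 0.17, limma adjusted p = 2.85e-06). The nearest gene-named probe, for the predicted gene Gm4971 at 66065 bp, differed by 0.02. The reverse strand of chr1:135956616-135957485, 12559 bp from a probe for the extracellular matrix proteoglycan fibromodulin (Fmod) that was not tested, had a median of 3.09. Its probe A_30_P01027147 read -1.19, -1.32 and -0.74 in Ctrl, 2.12, 1.91 and 1.99 in T, and -1.56, -1.33 and -1.63 in M. T was 8.52-fold above Ctrl (3.09, SE 0.20, limma adjusted p = 6.86e-06), and M was not called different from Ctrl (-0.42, adjusted p = 0.136).

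The forward strand of chr17:27479404-27481770 holds a same-strand probe for the predicted gene Gm10505, which was above background on the 3 T arrays and on no array of Ctrl or M. Its 3 member probes were all higher in T. One of them, A_30_P01032586, was above background on only 1 Ctrl array, so it passed the filter without Ctrl. A_30_P01024749 read -5.20, -4.60 and -4.43 in Ctrl, -0.29, -0.01 and -0.21 in T, and -3.92, -3.94 and -3.84 in M. This was a 23.8-fold rise in T (4.57, SE 0.22, limma adjusted p = 2.04e-06), while M stood a little above Ctrl, also without overlap.

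**Figure D3:**
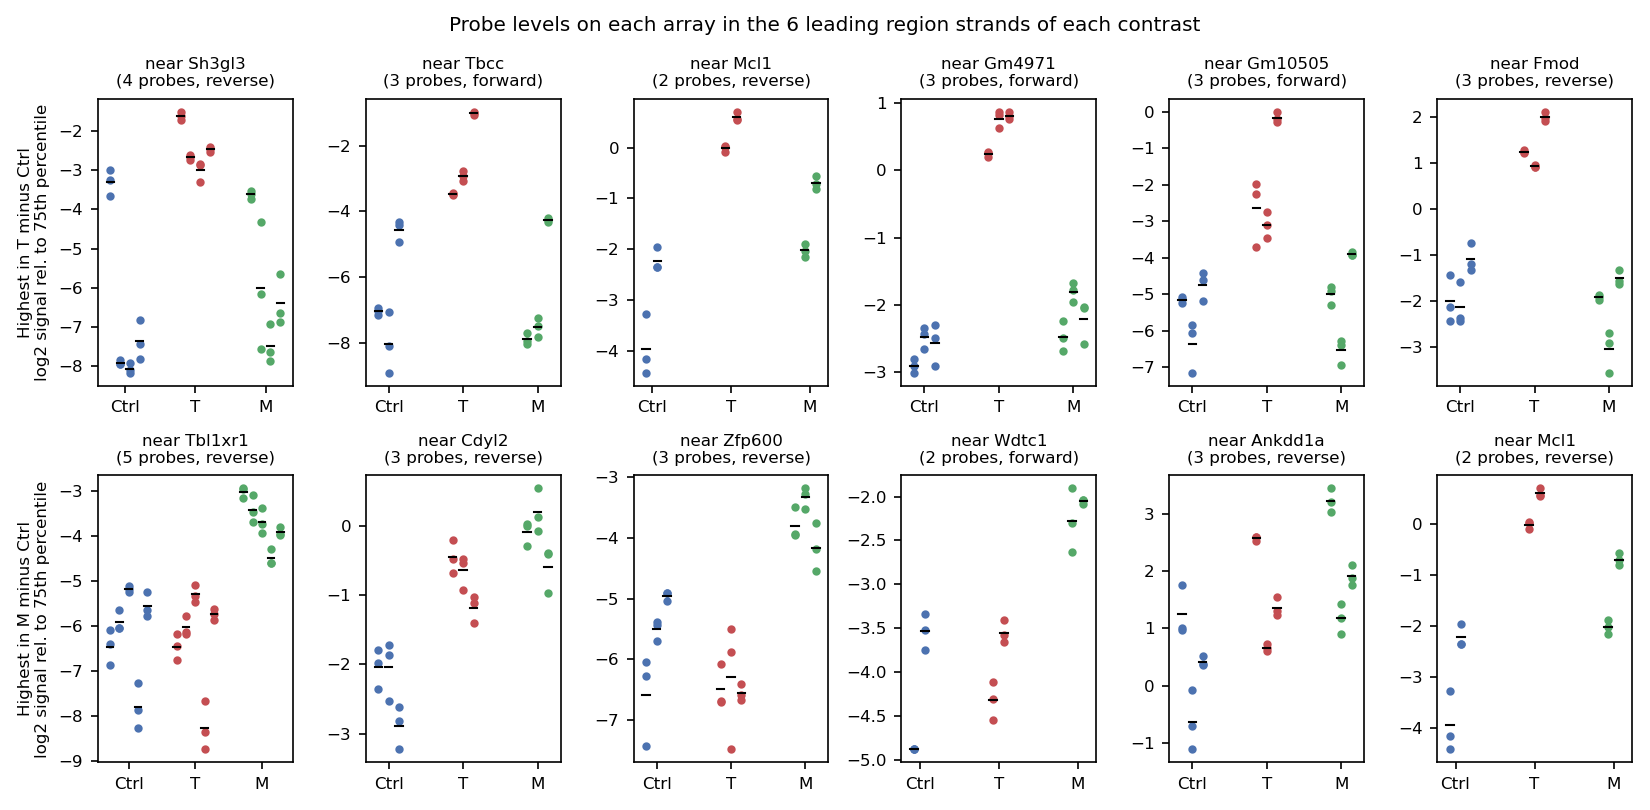
Level of every tested probe on each of the 9 arrays, as log2 signal relative to the array's 75th percentile, in the 6 region strands with the highest fitted median for T minus Ctrl (top row) and for M minus Ctrl (bottom row); each column of 3 points is 1 probe in 1 group, with its mean as a bar, and panels are titled by the nearest gene-named probe. In the top row the T points lie above the Ctrl points of the same probe in every panel, and in the bottom row the M points lie above the Ctrl points.

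The region strands that fell furthest in T rested on Ctrl values that were spread out. On the reverse strand of chr2:48807211-48843911, 2 of 5 probes were tested and both were lower, with a median of -2.52. A_30_P01025827 read -0.03, -0.32 and -2.72 in Ctrl, -4.37, -4.56 and -4.47 in T, and -3.60, -3.23 and -3.92 in M. Ctrl3 lay between the other Ctrl arrays and the rest, and the groups still did not overlap. The difference was -3.44 (SE 0.57, limma adjusted p = 0.00169), 10.9-fold lower, and -1.75 with Ctrl3 alone standing for its group. The forward strand of chr1:42758928-42771337, which holds a probe for 2900092D14Rik, had a median of -2.41. Its probe A_30_P01032893 read -1.08, -2.04 and -3.78 in Ctrl and -5.05, -5.51 and -6.05 in T, a difference of -3.24 (SE 0.57, limma adjusted p = 0.00211) that was -1.76 with Ctrl3 alone. In both the fall kept its call with Ctrl3 alone but shrank.

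The remaining leading falls were the reverse strands of chr5:113749473-113750726, chr8:105742425-105852975 and chr3:131128972-131163308, and the forward strand of chr7:114369337-114407862. On chr5, A_30_P01032967 was at least 2.35-fold lower in T (limma adjusted p = 0.000473). This probe passed the filter without T, so that it is higher elsewhere follows from the choice. On chr8, A_30_P01031467 read -1.91, -2.91 and -4.25 in Ctrl and its difference of -1.88 (limma adjusted p = 0.0102) was -0.65 with an adjusted p of 0.142 when Ctrl3 stood alone. The chr7 region lies near a probe for Rbmxl2, a testis RNA-binding protein gene, which moved the opposite way, by 3.34.

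The next comparison asks what differed in the migratory macrophages of the upper chamber (M) from macrophages cultured alone, with both groups on the same slide. Fewer members were called than for T. There were 392 higher (3.66%) and 1380 lower (12.9%), with a median of -0.40 over the 10709. Over all probes 18.4% were called, 8.26% higher and 10.1% lower, and over the other probes 9.94% and 9.09%, with a median of -0.13. The arrays of M and Ctrl did not overlap for 3830 members (35.8%), and the share over all probes was 35.8% as well.

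These counts rested on single arrays more than those for T did. Without Ctrl3 there were 702 higher and 3641 lower calls. Without Ctrl1 there were 208 and 335, and without Ctrl2 216 and 236. Without M1 the counts were 225 and 291, and without M3 206 and 246. Leaving out T2 or T3, which enter only through the shared spread, gave 672 and 799 lower calls, and with slide 1 fitted alone 209 were higher and 384 lower. Ctrl3 was the lowest Ctrl array for 76.2% of the 1380 probes called lower. Its median offset from the mean of Ctrl1 and Ctrl2 was -0.69 in these, against -0.22 over all tested members. With M1 and M3 left out together 93 members were higher and 62 lower, and with Ctrl1 and Ctrl2 left out 124 and 104.

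Scaling moved this balance too. Of the calls, 22.1% were higher with the 75th percentile, 44.2% under quantile normalization (587 higher, 742 lower) and 45.5% with the array median (612 higher, 732 lower). The median over all probes moved from -0.21 to -0.04 and 0.09. Of the calls made on the deposited value table, 34.3% were higher. The members' median lay below that of the other probes by 0.27, 0.19 and 0.27 in the first 3 of these.

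Region strands called throughout were rare in M. Of 2762, 21 were higher throughout and 32 lower throughout, 28 had calls in both directions and 1676 had none. With 3 or more tested probes the counts were 17 and 8 of 1779. Both strands were higher throughout in 4 of 960 regions and lower throughout in 4, and in 67 only 1 strand was called throughout.

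A leading rise in M was on the reverse strand of chr3:21964899-21974524, where all 5 probes were higher. The fitted differences had a median of 2.50, which was 1.94 with the 1 probe not above background in Ctrl set to its bound. A_30_P01030305 read -5.11, -5.24 and -5.17 in Ctrl, -5.08, -5.46 and -5.33 in T, and -3.37, -3.92 and -3.74 in M. Ctrl and T overlapped at a low level and M stood above both. M was 2.82-fold above Ctrl (1.50, SE 0.19, limma adjusted p = 0.000769) and above T by 1.61 (adjusted p = 0.000325), while T minus Ctrl was -0.11 (adjusted p = 0.65). A_30_P01022266 was 10.9-fold higher in M (adjusted p = 8.54e-06), and A_30_P01018336, not above background in Ctrl or T, at least 3.84-fold. The latter passed the filter through M alone, so that it is higher there follows from the choice. The nearest gene-named probe, for the corepressor subunit gene Tbl1xr1, lay 133994 bp away and differed by 0.63 (adjusted p = 0.0749).

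The reverse strand of chr8:119092623-119094219 lies 4108 bp from a same-strand probe for the chromodomain protein gene Cdyl2. All 3 of its probes were higher in M, with a median of 2.24. A_30_P01019173 read -2.53, -1.72 and -1.87 in Ctrl, -0.92, -0.54 and -0.48 in T, and 0.13, -0.07 and 0.53 in M. The groups formed separate steps with M highest, 4.71-fold above Ctrl (2.24, SE 0.26, limma adjusted p = 0.000367). T was above Ctrl by 1.39 (adjusted p = 0.00281). M was above T by 0.84 (adjusted p = 0.0409), a call that was lost without T1, T2, T3, M1 or M3. The Cdyl2 probe rose by 2.51 in M (adjusted p = 0.000295) and by 1.84 in T.

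On the forward strand of chr4:132897264-132910714 both tested probes were higher in M, with a median of 2.04. A_30_P01021519 read -3.33, -3.52 and -3.75 in Ctrl, -3.41, -3.58 and -3.66 in T, and -2.04, -2.04 and -2.08 in M. M was 2.79-fold above Ctrl (1.48, SE 0.17, limma adjusted p = 0.000393), with T inside the range of Ctrl. The probe for Wdtc1, 44808 bp away, differed by -0.01. The reverse strand of chr9:65368908-65377592 was higher in both co-culture groups. Its probe A_30_P01020239 read 1.01, 0.98 and 1.75 in Ctrl, 2.59, 2.53 and 2.60 in T, and 3.04, 3.44 and 3.20 in M, which is 3.95-fold in M (1.98, SE 0.23, limma adjusted p = 0.000385) and 1.33 in T (adjusted p = 0.00207). The probe for Ankdd1a, 17675 bp away, rose by 0.97 in M (adjusted p = 0.0189) and was not called in T (0.14, adjusted p = 0.635).

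The forward strand of chr8:110197171-110206546 was among the leading falls in M. All 5 of its probes were lower in M and none was called in T. The fitted median was -2.14, and -1.49 with the 2 probes not above background in M set to their bounds. These 2 passed the filter without M, so that they are higher elsewhere follows from the choice. A_30_P01017455 read -2.34, -2.23 and -1.75 in Ctrl, -2.41, -2.59 and -2.67 in T, and -3.70, -3.50 and -3.60 in M. M stood below both other groups, 2.81-fold under Ctrl (-1.49, SE 0.20, limma adjusted p = 0.000888). T minus Ctrl was -0.45 (adjusted p = 0.0852), and M minus T was -1.04 (adjusted p = 0.00442). The probe for the proteasome subunit gene Psmd7, 92710 bp away, differed by 0.02. On the forward strand of chr8:74333475-74384150, another of the leading falls, 2 of 5 probes were tested. A_30_P01030188 read 0.11, -0.81 and -4.11 in Ctrl and -5.23, -4.29 and -5.27 in M. Its difference of -3.33 (SE 0.89, limma adjusted p = 0.0331) lost its call without Ctrl1, Ctrl2, M1 or M3, at adjusted p values of 0.107, 0.116, 0.0986 and 0.107.

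The last comparison sets the migratory macrophages against the lower-chamber co-culture, which shares its arrays with both comparisons above and crosses slides. Here 1266 members were higher in M (11.8%) and 1051 lower (9.81%), with a median of 0.16. All probes gave 12.6% and 10.2%, or 22.8% either way, and the other probes 12.9% and 10.3% with a median of 0.10, so the members' shares were near the background. The arrays did not overlap for 4478 members (41.8%), against 45.4% of all probes. Of the calls, 54.6% were higher with the 75th percentile, 48.3% under quantile normalization and 43.5% with the array median (913 higher, 1184 lower), so the side with more calls depended on the scaling. Without T2, T3, M2 or M3 the higher calls numbered 648, 548, 725 and 694. Of 2762 region strands 45 were higher throughout and 90 lower.

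One of the leading rises over T was the forward strand of chr4:109071198-109078776, 13007 bp from a probe for the endocytic adaptor gene Eps15. All 5 probes were higher in M than in T, by 1.73 to 1.92. A_30_P01028033 read 0.49, 0.80 and 1.06 in Ctrl, -0.30, -0.26 and -0.28 in T, and 1.75, 1.33 and 1.65 in M. The groups were in the order T, Ctrl, M with no overlap. M was 3.62-fold above T (1.86, SE 0.20, limma adjusted p = 0.000159), and T was below Ctrl by 1.07 (adjusted p = 0.00281). M minus Ctrl was 0.79 (adjusted p = 0.0268), a call lost without Ctrl1, Ctrl2, M1 or M3. The Eps15 probe differed by 0.13 between M and T.

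The chr3:21964899-21974524 and chr4:132897264-132910714 region strands described above were also among the leading rises over T. So was the reverse strand of chr4:146156575-146175425, which holds an opposite-strand probe for the zinc finger gene Zfp600. Its 3 tested probes of 5 were all higher in M than in T, with a fitted median of 2.69. A_30_P01021890 read -5.70, -5.38 and -5.44 in Ctrl, -5.50, -5.88 and -7.48 in T, and -3.28, -3.18 and -3.52 in M, so that M stood above both other groups (2.96 over T, SE 0.42, limma adjusted p = 0.000897). In T the 3 probes were dim, above background on 2, 1 and 1 of the 3 arrays. They passed the filter without T, so that they are higher elsewhere follows in part from the choice. A further one was the forward strand of chr11:120046656-120050065, which holds a probe for the predicted gene Gm9734. Its probe A_30_P01025221 read -5.46, -5.46 and -5.47 in T and -2.65, -2.81 and -2.75 in M, 6.61-fold higher (2.73, SE 0.16, limma adjusted p = 4.35e-06).

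Among the region strands lower in M than in T, 4 were those that led the rises in T, near Tbcc, Sh3gl3, Fmod and Gm10505. The one near Fmod, with all probes above background in both groups, had a median of -3.51. Another was the forward strand of chr12:70602812-70603402, where M lay below Ctrl and T above it. A_30_P01024497 read -2.07, -2.14 and -1.99 in Ctrl, -1.36, -1.22 and -1.36 in T, and -3.37, -2.84 and -3.24 in M. M minus T was -1.84 (limma adjusted p = 0.000102), T minus Ctrl 0.76 (adjusted p = 0.00876) and M minus Ctrl -1.08 (adjusted p = 0.00402). The probe for 5830428M24Rik, 36921 bp away, fell by 2.55 from T to M (adjusted p = 6.92e-06). On the reverse strand of chr2:116802549-116803286, A_30_P01020100 read -1.70, -1.20 and -1.73 in Ctrl, -0.10, 0.03 and 0.07 in T, and -2.90, -1.73 and -2.19 in M, and was 4.84-fold lower in M than in T (limma adjusted p = 0.000406).

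A list of 32 genes, beside which long noncoding RNAs have been described in myeloid or tumour cells, was used to pick neighbourhoods. For 11 of them a region strand had its nearest gene-named probe within 100 kb, among them Ptgs2, Socs3, Cdkn1a, Malat1, Neat1, Myc, Pvt1, Vegfa, Csf1 and Cebpb. These gave 28 region strands with 103 probes, of which 85 were tested. In T, 33 were higher and 17 lower than in Ctrl, with a median of 0.11, against 14.9% higher and 31.6% lower over all probes. In M, 7 were higher and 8 lower than in Ctrl, with a median of -0.31, against 8.26% and 10.1% over all probes. From T to M, 6 were higher and 29 lower, against 12.6% and 10.2%. The list was put together with earlier results of these data known.

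Beside Ptgs2, the inducible enzyme of prostaglandin synthesis, the region chr1:152001112-152012796 lies 46309 bp from the gene's probe. On the 2 strands 7 of 8 probes were tested, and 6 of them were higher in T. A_30_P01020197 on the forward strand read -4.40, -3.99 and -3.95 in Ctrl, -2.005, -1.57 and -1.55 in T, and -2.84, -2.90 and -2.92 in M. T was highest, M lay between, and no groups overlapped. T was 5.31-fold above Ctrl (2.41, SE 0.20, limma adjusted p = 2.99e-05), M was above Ctrl by 1.23 (adjusted p = 0.00302), and M was below T by 1.18 (adjusted p = 0.00232).

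Its opposite-strand partner A_30_P01020139, which shares the 37 bases shown in capitals, was higher in T by 1.39 (adjusted p = 0.00432) and not called in M (0.68, adjusted p = 0.109). A_30_P01032166 on the reverse strand was not above background in Ctrl and was at least 6.92-fold higher in T and at least 3.86-fold in M. It passed the filter without Ctrl, so that it is higher elsewhere follows from the choice. The Ptgs2 probe had the same order, with 2.22 in T (adjusted p = 8.68e-05) and 1.02 in M (adjusted p = 0.0138). The exception among the 7 was A_30_P01026117, which read -1.36, -2.52 and -6.95 in Ctrl, so that Ctrl3 lay far below the other Ctrl arrays. Its difference in T was -0.89 (SE 1.11, adjusted p = 0.533), which became -2.56 without Ctrl3 (adjusted p = 0.000901) and 0.24 without Ctrl1. In M it was -3.68 (adjusted p = 0.0458), a call that was lost when any one of the other 8 arrays was left out.

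Beside Socs3, region chr11:117768049-117807949 lies 19531 bp from the gene's probe, and all 5 of its tested probes were higher in T, 2 on the forward and 3 on the reverse strand. A_30_P01022718 read -3.28, -3.22 and -3.37 in Ctrl, 0.21, 0.20 and 0.19 in T, and -2.84, -2.42 and -2.87 in M. Its partner A_30_P01017974, with 43 shared bases, read -2.71, -2.71 and -2.81 in Ctrl, 0.69, 0.86 and 0.55 in T, and -2.02, -2.29 and -1.94 in M. Both read T far above the other groups, by 3.49 (SE 0.18, limma adjusted p = 2.29e-06) and 3.45 (SE 0.17, the same adjusted p). In M the differences were 0.58 (adjusted p = 0.048) and 0.66 (adjusted p = 0.0304). The first was lost without any one of the arrays other than Ctrl3, and with the replicate number as a block (limma adjusted p = 0.0663). The second was lost without Ctrl1, Ctrl2, T2, M1 or M3.

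On the other side of Socs3, in region chr11:117835849-117842574 at 8310 bp, all 5 forward probes and 3 of 5 reverse probes were higher in T, with medians of 1.36 and 1.74. With the replicate number as a block, a further reverse probe, A_30_P01027020, was called lower in T (-0.90, adjusted p = 0.0499). In M none of the 5 forward probes was called and 1 reverse probe was lower. With the block, the forward probe A_30_P01031804 was called lower in M (-0.72, limma adjusted p = 0.0477). The Socs3 probe was higher in both, by 1.24 in T (adjusted p = 0.00104) and 1.11 in M (adjusted p = 0.0039). Another region strand near Socs3, the reverse strand of chr11:117792051-117811334, did not rise, with 1 of 3 probes lower in T and a median of -0.48.

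Beside Cdkn1a, the reverse strand of chr17:29192453-29216073 lies 11913 bp from the gene's probe and moved in opposite directions in T and M. This stretch overlaps the array's own probes named lincP21, after a noncoding RNA known as a p53 target. A_30_P01021480 read -1.69, -1.65 and -1.84 in Ctrl, -0.81, -0.75 and -0.71 in T, and -3.09, -2.76 and -3.25 in M. T lay above Ctrl and M below it, with no overlap. The differences were 0.97 in T (SE 0.18, limma adjusted p = 0.00268), -1.31 in M (adjusted p = 0.00109) and -2.28 for M minus T (adjusted p = 2.51e-05). A_30_P01019784 gave 0.79 in T (adjusted p = 0.00499) and -0.96 in M (adjusted p = 0.00505). The Cdkn1a probe was called in neither, at 0.43 (adjusted p = 0.0715) and -0.32 (adjusted p = 0.202), and was lower in M than in T by 0.74 (adjusted p = 0.0141).

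Malat1 and Neat1 are neighbouring nuclear noncoding RNAs, Neat1 being the scaffold of paraspeckles. On the reverse strand of chr19:5834117-5835940, 6624 bp from a Neat1 probe, all 3 probes were higher in T, by 2.39, 2.46 and 1.81. The Neat1 probe was not called (0.07, adjusted p = 0.791). Whether that region strand and Neat1 belong to the same transcript was not tested. On the reverse strand of chr19:5798135-5800557, 2363 bp from a Malat1 probe, all 3 probes were higher in T with a median of 2.34, and the Malat1 probe was higher by 1.49 (adjusted p = 0.00202). Of these 3, A_30_P01020935 (1.13) lost its call with the replicate number as a block (adjusted p = 0.0546). On the reverse strand of chr19:5801802-5802597, 6030 bp from that Malat1 probe, 1 of 3 probes was higher in T, with a median of 0.47. Both region strands near Malat1 lie inside chr19:5795689-5802671 on the same strand, the stretch that the array names NEAT2, another name of Malat1. They therefore overlap Malat1 and are not intergenic by that measure. On the 3 reverse region strands named here no probe was called against Ctrl in M, and the 3 probes near Neat1 were all lower in M than in T. On the forward strand the regions over Malat1 and Neat1 had medians near 0 in T, at -0.08, 0.11 and 0.07. Single probes there were called in T all the same. In the same order, 2 of 10 were higher and 2 lower, 0 of 3 were called, and 1 of 3 was higher, beside 46.4% called over all probes.

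**Figure D4:**
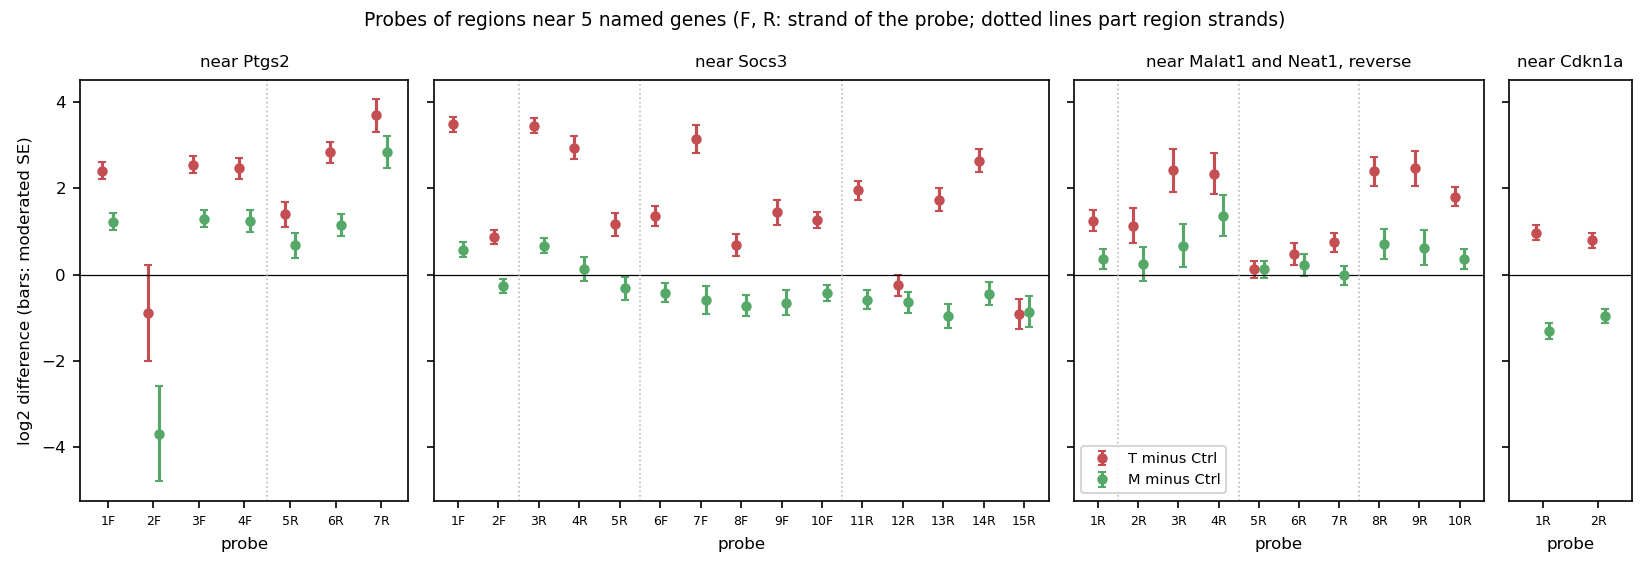
Log2 difference from Ctrl of tested probes in the regions near Ptgs2, Socs3, Malat1 with Neat1 (reverse strand) and Cdkn1a, for T (red) and M (green). Bars are moderated SE, F and R give the probe's strand, and dotted lines part region strands. The Socs3 panel holds only regions named on both strands. It leaves out the reverse strand of chr11:117792051-117811334, which had a median of -0.48 in T. Near Ptgs2 6 of 7 probes lie above 0 in T, near Socs3 the T values reach 3.49 while the M values stay between -0.96 and 0.66, and near Cdkn1a T lies above 0 and M below.

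Among the remaining neighbourhoods are those of Myc, Vegfa, Csf1 and Cebpb. The Myc probe rose by 3.58 in T and 4.21 in M. On the 3 region strands near it the calls in T were 1 of 3 lower, 2 of 4 lower, and 1 higher with 1 lower of 5, beside 46.4% called over all probes. In the last of these, A_30_P01023290 was also called lower with the replicate number as a block (-0.78, adjusted p = 0.0395). On the forward strand of chr15:61919018-61935580, A_30_P01018604 differed by -1.82 in T (limma adjusted p = 0.000542). Beside Vegfa, which encodes the angiogenic growth factor, the 3 forward probes of chr17:46058814-46059304 were lower in T with a median of -1.07, whereas the Vegfa probe 95083 bp away was higher by 1.25. Near Csf1, the macrophage growth factor, A_30_P01032404 was lower in M by 1.57 (limma adjusted p = 0.011), a call lost without M3 (-1.41, adjusted p = 0.0518). Neither probe near Cebpb was called in T or M.

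Over all region strands, probes that lie close together gave like differences, and the likeness was weaker at longer distances. The Pearson correlation of the T minus Ctrl differences over 15150 pairs of tested probes of 1 region strand was 0.46. It was 0.62 for 1849 pairs whose starts lay up to 60 bp apart, 0.51 from 200 to 500 bp, 0.30 from 1 to 5 kb, 0.19 for 1778 pairs from 5 to 20 kb and 0.26 for 827 pairs over 20 kb apart. For M minus Ctrl it went from 0.49 to 0.09 over the same range. The pairs share arrays and region, and close pairs share base composition, so these values describe the data and carry no test.

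Probes on opposite strands of a region were nearly as alike, at 0.38 for T minus Ctrl, 0.24 for M minus Ctrl and 0.39 for M minus T over 13104 pairs. Where opposite-strand probes shared at least 20 bases the values were 0.68, 0.40 and 0.67 over 1105 pairs. The pairs beside Ptgs2 and Socs3 are examples of such probes. Whether both strands were transcribed was not tested, since the labelled strand is not given.

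Likeness to the nearest gene-named probe was weaker and also fell with distance. For T minus Ctrl the correlation between the median of a region strand and its nearest tested gene-named probe was 0.53 over 565 region strands with that probe inside, 0.32 over 1476 within 10 kb and 0.24 over 2977 within 100 kb. For M minus Ctrl it was 0.31, 0.21 and 0.15, and for M minus T 0.50, 0.32 and 0.22. Same-strand and opposite-strand neighbours inside the region gave 0.52 and 0.57 for T minus Ctrl. From 50 to 100 kb, over 418 region strands, it was 0.21 for T minus Ctrl, 0.14 for M minus Ctrl and 0.14 for M minus T.

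**Figure D5:**
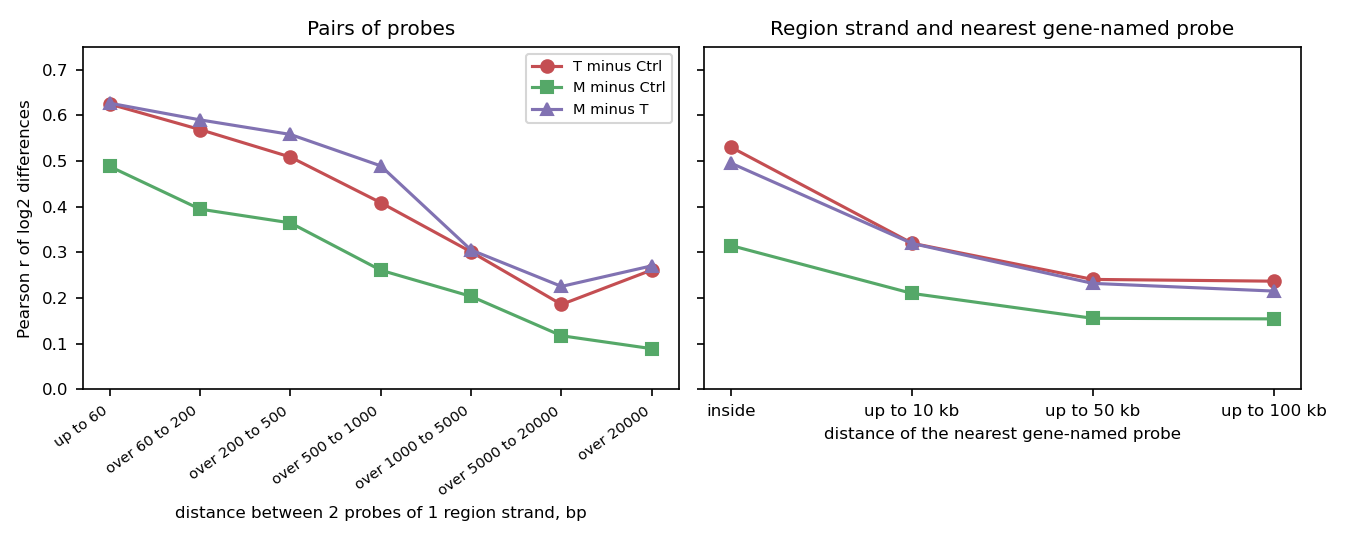
Pearson correlation of log2 differences, for pairs of probes of 1 region strand by the distance between their starts in bp (left) and for a region strand's median with its nearest gene-named probe by distance (right, each point including the nearer ones), for the 3 contrasts. The T minus Ctrl values run from 0.62 down to 0.19 at 5 to 20 kb and stand at 0.26 beyond that on the left; on the right they run from 0.53 to 0.24, and the M minus Ctrl values lie lowest at every distance.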

How the data were processed

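The 9 arrays share 1 Agilent design, with 62976 spots on each, 59305 of them not controls, for 55681 probes. Spots were read by the authors with Agilent's Feature Extraction, for which the submitters' processing notes give version 10.7.3.1. The deposited intensity per spot is its processed signal, from which background had been subtracted, with no scaling from array to array, per the file headers. The authors' deposited value table gives the same arrays partly as intensity and partly as log2: the columns for Ctrl1, M1, M2 and M3 are linear, with medians of 215, 195, 246 and 219, and those for Ctrl2, Ctrl3, T1, T2 and T3 are log2 centred on the 75th percentile, with medians of -3.39, -3.71, -3.76, -3.93 and -4.03. Set against the scanner files within 0.001 on the log2 scale, 6 columns matched the file of their own array, those of M1 and M2 matched the other's, and that of T2 matched none, so its scale and centring are inferred from its values. No column is a ratio, so direction is not in question. That table served as an alternative only.

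Outlier and control spots were left out, spots of a probe averaged, and log2 signals set to each array's 75th percentile. Probes well above background on all 3 arrays of a group were fitted with limma 3.58.1 (lmFit and eBayes, R 4.3.3) over all 9 arrays, without covariates, and adjusted by the Benjamini-Hochberg method over all of them at 0.05. Counts and correlations were made in Python 3.11.15 with pandas 2.3.3, and plots with matplotlib 3.10.9. The fit was tested on simulated data. Where all arrays of a group were not well above background, a fold is a bound: the bright group's mean is set against a mean over the dim group's arrays, each taken at the lowest signal that cleared background there or at the probe's own signal if that was larger.

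Named region strands are, per contrast, the 6 highest and 6 lowest medians among those with at least 2 tested probes, all called the same way with arrays that do not overlap, each described through its probe of highest mean. Added to these are the 8 probes of highest mean and the region strands near 32 listed genes. The members and lists were chosen with earlier results of these data known. Probe positions are on mm9 per the file headers, and gene names are those of the array's design, with gene classes from a RefSeq gene table of another build used for names only. Alternatives were other scalings, background correction, filters, a variance trend, the deposited table, the replicate number as a block, region strands averaged and arrays left out. Same-numbered arrays of Ctrl and T had deviations from their group means that correlated at 0.54, 0.11 and 0.35. Differently numbered arrays of Ctrl and T gave -0.45 to 0.20, the highest being Ctrl3 with T2, above the 0.11 of Ctrl2 with T2. Same-numbered arrays of M with either group gave -0.26 to 0.02, while Ctrl1 with M2 gave 0.35. These values do not settle whether the numbers pair the arrays, so the main fit had no block and the block served as an alternative. Some region strands that the rule names are not reported here.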

Additional observations from a re-analysis of the deposited data

How the results depend on the processing

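The counts of members called moved with scaling, filters and single arrays, and those of M against Ctrl the most. For T minus Ctrl, 1149 higher and 4653 lower became 1819 and 2514 with the array median as the reference, and lower calls 2941 under quantile normalization. From the deposited value table there were 762 higher. For M minus Ctrl, 392 higher and 1380 lower became 612 and 732 with the median, 197 and 378 with the deposited table, 742 lower under quantile normalization and 1863 higher with no filter on dim probes. For M minus T, 1266 higher and 1051 lower became 421 and 402 with the deposited table, 3270 higher with no filter, and 610 lower with probes above background on all 9 arrays. Averaging the probes of a region strand first, which leaves fewer units, gave 325 and 2136, 101 and 687, and 521 and 351. Leaving out 1 array gave 859 to 1304 higher and 2786 to 5377 lower for T minus Ctrl, 206 to 702 and 236 to 3641 for M minus Ctrl, and 548 to 1697 and 756 to 1285 for M minus T. Chosen after seeing the data, leaving out M1 and M3 gave 93 and 62 for M minus Ctrl and 616 and 565 for M minus T, leaving out Ctrl1 and Ctrl2 gave 633 and 902 for T minus Ctrl and 124 and 104 for M minus Ctrl, and fitting slide 1 alone gave 209 and 384 for M minus Ctrl. With at least 3 tested probes, region strands lower throughout in T were 207 of 1779, lower in M 8, and for M minus T 18 higher and 55 lower. The 75th percentile over probes detected on all 9 arrays, normexp, a floor and an intensity trend moved no count by over 1.5 times. With the replicate number as a block the counts were 1087 and 4676, 378 and 1806, and 1165 and 1003, within 1.5 times of the unblocked ones. For T minus Ctrl the 85 probes near listed genes then gave 31 higher and 18 lower, and 6 values of named probes changed their call. For M minus Ctrl 5 values of named probes changed, with calls both gained and lost, and for M minus T 1 lost its call. Slide as a block could not be fitted with T confined to 1 slide, and was not run. Of 426 values of named probes, 241 kept their side of the threshold under all 22 settings that gave a value for them. Those that were called also kept their direction, while a value that was not called could change sign and still count as kept. With dim signals set to a floor 3 called values turned sign: A_30_P01028281 (0.19) and A_30_P01019018 (0.28) for M minus T, and A_30_P01024605 (0.11) for M minus Ctrl. The floor itself replaces their dim signals. Dim members are limited by signal over background: 2980 of 10709 were below it in some group.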

Other observations

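The array also carried 57 probes named for 12 known noncoding RNAs, which are not among the position-named probes, and 35 of them were tested. The 5 probes for H19, an imprinted maternal transcript, were all higher in T than in Ctrl, by 1.57 to 2.63 with a median of 2.16, and all lower in M than in T. The 5 probes for KCNQ1ot1, an imprinted antisense transcript, were all lower in T, with a median of -0.86. All 3 probes for NEAT2, another name of Malat1, were higher in T (median 1.32), as were 4 of 5 for TUG1 (median 0.96), while none of 5 for NEAT1 was called in T or M. Of the 5 probes for lincP21, 3 were higher in T and 4 were lower in M than in Ctrl, the latter with a median of -0.77. The remaining names had 1 or 2 tested probes each. Among them, HOTAIR (-1.26), TSIX (-1.14), XIST (-1.49) and the 2 NRON probes (median -0.96) were called lower in T. BRN1-A and PINC were not called there. All of these are calls of the limma fit over all probes tested. For T minus Ctrl, 14.9% of all probes were called higher and 31.6% lower. For M minus Ctrl the shares were 8.26% and 10.1%, and for M minus T 12.6% and 10.2%.

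The 8 members with the highest mean signal lay in 6 regions, on chromosomes 2, 13, 14 and X. None of them was called in T or M against Ctrl, with limma adjusted p values down to 0.084 for A_30_P01031246 in T. That probe, on the forward strand of chrX:98979320-98997145, read 7.04, 6.74 and 6.93 in Ctrl, 6.71, 6.20 and 6.27 in T, and 6.45, 6.97 and 7.02 in M. Other probes of the same region strands moved. On the forward strand of chr14:78924115-78938125, A_30_P01031448, one of the 8, differed by -0.04 in T, A_30_P01028790 by -0.70 (adjusted p = 0.0259) and A_30_P01025730 by 1.92 (adjusted p = 0.000163), so probes given 1 region name did not share 1 direction.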
